A study of Homo sapiens with 12 samples.

Results

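The comparison set knockdown of CHD4 against knockdowns of HDAC2 and KDM1A in cells that the labels name HEK293T, a human embryonic kidney line that carries the SV40 large T antigen. The text of the study names HEK293, its parent line without that antigen, and the data were not used to tell which it was. It drew on 6 of the 12 libraries of the series, chosen by the treatment label: 2 libraries of siCHD4, 2 of siHDAC2 and 2 of siKDM1A. The 2 enzyme groups were weighted equally, so that the reference was the mean of siHDAC2 and siKDM1A, and no library of the control siRNA (siCTL) entered the contrast. All cells were grown in DMEM with fetal bovine serum and transfected with siRNA by a cationic lipid, and total RNA was sequenced as stranded paired-end libraries. The methods give 1 siRNA sequence for each of CHD4, HDAC2 and KDM1A, so loss of the target and any other effect of that siRNA cannot be told apart. Nothing says that the 2 libraries of a group came from separate cultures, so the p-values below measure only the spread between these libraries, which may be technical.

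The NuRD complex joins an ATP-dependent chromatin remodeller (CHD3, CHD4 or CHD5) to the histone deacetylases HDAC1 and HDAC2, together with the MTA scaffolds, the methyl-CpG binding proteins MBD2 and MBD3, the histone chaperones RBBP4 and RBBP7, GATAD2A or GATAD2B, and CDK2AP1. KDM1A, a demethylase of histone H3, is best known as a partner of the CoREST corepressor and has also been found with NuRD. The contrast therefore asks where transcript levels after loss of the remodeller differ from those after loss of a deacetylase or demethylase linked to the same machinery. HDAC2 also belongs to the SIN3 and CoREST complexes, and HDAC1 remains in its absence.

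The 6 libraries held between 20613474 and 28648657 counts on genes. Unless stated otherwise, levels are counts per 1000000 (CPM), scaled by the trimmed mean of M values over all 12 libraries, and differences are log2 differences from a fit of edgeR to the 6 libraries over 12758 protein-coding genes. A gene was called when the adjusted p was at most 0.05 and the fold at least 1.2. Reads that fitted no exon on the counted strand made up 18.5% to 18.7% of fragments in siCHD4, 20.8% to 21.2% in siHDAC2 and 19.1% to 19.3% in siKDM1A. They include reads in introns and on the opposite strand of genes. Mitochondrial genes took 0.561% and 0.573% of counts in siCHD4 and 0.663% to 0.722% in the other 4 libraries, and the part of these library properties in the results was not tested. Marker genes of cell types were read on CPM scaled by library totals. Of the genes marking HEK293 cells, VIM, KRT8 and KRT18 were abundant, LHX1 was present and NEFM and PAX2 were at or below 2.23 CPM in all 6 libraries. Of the 4 blood markers no library exceeded a summed 0.479 CPM. The 6 genes marking MCF7 cells summed to 120 to 121 CPM in siCHD4, 93.8 to 101 in siHDAC2 and 108 to 117 in siKDM1A, most of it KRT19 (78.8 to 104 CPM), while ESR1 did not exceed 0.559 CPM. The 6 genes marking MDA-MB-231 cells summed to 162 to 167, 109 to 113 and 146 to 150 CPM, and of the 5 tested 3 were called higher and 1 lower in siCHD4. The 4 fibroblast genes summed to 81.3 to 83.1, 85.2 to 89.8 and 117 to 130 CPM, most of it COL1A1, while DCN did not exceed 0.0714 CPM, and both that were tested were called lower. The part of other cells in the results was not tested.

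Each targeted transcript was lowest in the libraries treated with its own siRNA, to different degrees. HDAC2 was measured at 209 and 219 CPM in siCHD4, 39.1 and 39.4 in siHDAC2, 203 and 211 in siKDM1A, and 197 and 204 in siCTL. KDM1A was at 198 and 184 CPM in siCHD4, 172 and 169 in siHDAC2, 27.7 and 28.5 in siKDM1A, and 173 and 167 in siCTL. CHD4 itself was at 25.6 and 26.7 CPM in siCHD4, 33.9 and 37.2 in siHDAC2, 39.7 and 37.6 in siKDM1A, and 38.1 and 38.2 in siCTL. The CHD4 libraries lay below all others without overlap, but the distance was small beside those of the enzyme targets. CHD4 differed by −0.51 (SE 0.07, adjusted p = 1.95e-09 by edgeR), while siHDAC2 minus siKDM1A was −2.40 for HDAC2 and 2.60 for KDM1A.

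**Figure D1:**
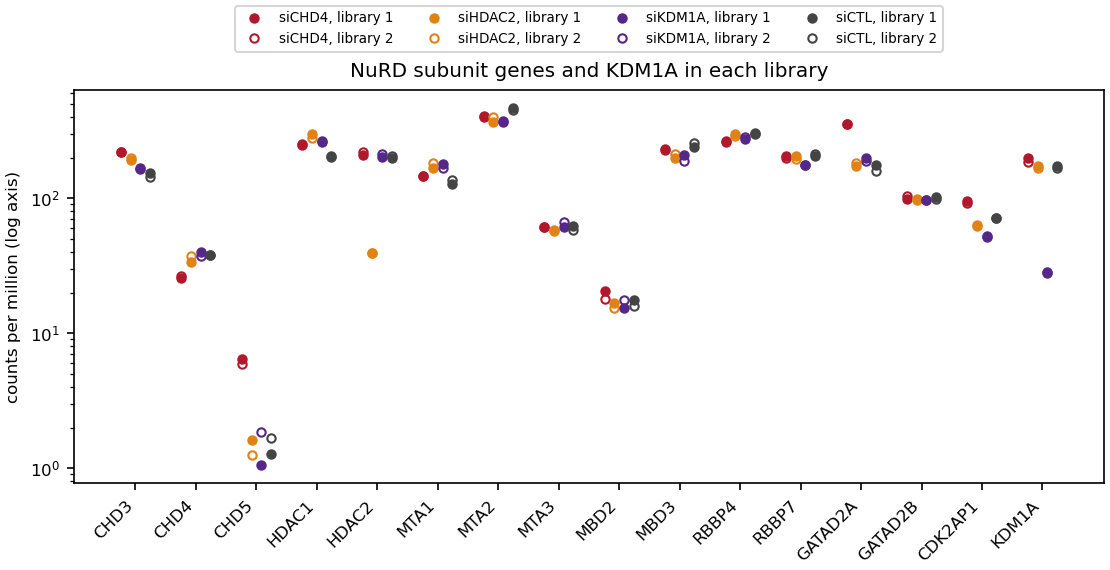
Level of the NuRD subunit genes and KDM1A in each library, in CPM on a log axis, for siCHD4, siHDAC2, siKDM1A and siCTL (filled and open circles are the 2 libraries of a group). HDAC2 is low only in siHDAC2 and KDM1A only in siKDM1A, CHD4 is modestly low in siCHD4, and GATAD2A, CDK2AP1 and CHD5 stand above the other groups in siCHD4.

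The CHD4 count covers little of that transcript. On GRCh37 the gene lies on the minus strand of chromosome 12, from 6679248 to 6723690, and the canonical transcript has 40 exons and 6491 bases. Of these bases 90.1% are also exonic in an overlapping gene on the same strand, ENSG00000285238, which received 0 counts in all 12 libraries. A read that fits both genes is set aside as ambiguous. Over all annotated exons of CHD4, the share of bases that are exonic in another gene on that strand was 46.9%. If the deposited counts used the same gene models, the CHD4 counts, 604 to 1040 per library among the 6, came from unshared bases. Those include exon sequence outside the canonical transcript. The RT-qPCR primers that the study lists for CHD4 are shown because they sit in the shared stretch. Under those gene models they read a part of the mRNA that the counts do not:
CHD4 forward: agaaacctcgggaccctaaa
CHD4 reverse: atagtcgctgccctcactgt
The forward primer matched exon 3 (6711572 to 6711591) and the reverse primer exon 4 (6711234 to 6711253), and all 20 bases of each were shared with ENSG00000285238. No RT-qPCR value was used here.

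At the level of the whole transcriptome, siCHD4 stood well apart from both enzyme knockdowns. Of the 12758 genes, 6172 (48.4%) were called, 2971 (23.3%) higher and 3201 (25.1%) lower in siCHD4. The median fold was 1.39 among the higher genes and 1.45 among the lower ones, and 501 genes (3.93%) were called and more than 2-fold higher while 491 (3.85%) were more than 2-fold lower. Among the called genes, both siCHD4 libraries lay above all 4 others for 2865 of the 2971 higher genes (22.5% of all genes tested) and below all 4 for 3090 of the 3201 lower genes (24.2%). Over all genes tested, called or not, such non-overlap was seen above for 34% and below for 34.2%. Of the higher genes 291 passed the filter on low expression only through siCHD4, and of the lower genes 301 passed it only through the enzyme knockdowns, so those had to differ. The largest differences named below include such genes, and for them the differences are given as a description, with no p. In the gene lists below, shares called higher and lower are to be read beside the 23.3% and 25.1% over all genes tested.

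The 2 enzyme knockdowns differed much less from each other. Between siHDAC2 and siKDM1A, 1906 genes (14.9%) were called, 804 (6.3%) higher and 1102 (8.64%) lower in siHDAC2, and 158 (1.24%) differed by more than 2-fold. The standard deviation of the log2 differences across genes was 0.68 for siCHD4 against the enzyme mean and 0.32 for siHDAC2 against siKDM1A. Taken singly, siCHD4 gave 6267 calls (49.1%) against siHDAC2 and 6131 (48.1%) against siKDM1A, comparisons that share the siCHD4 libraries. Of all genes tested, 1196 (9.37%) were called both against the enzyme mean and between the enzyme knockdowns, 632 (4.95%) of them higher and 564 (4.42%) lower in siCHD4. Of the genes called higher in siCHD4, 632 (21.3%) also differed between the enzyme knockdowns, and of those called lower 564 (17.6%) did, against 710 (10.8%) of the genes not called. For 375 called genes (2.94% of those tested) the difference between the enzyme knockdowns was the larger one, and for these the mean of the enzyme groups describes neither group.

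**Figure D2:**
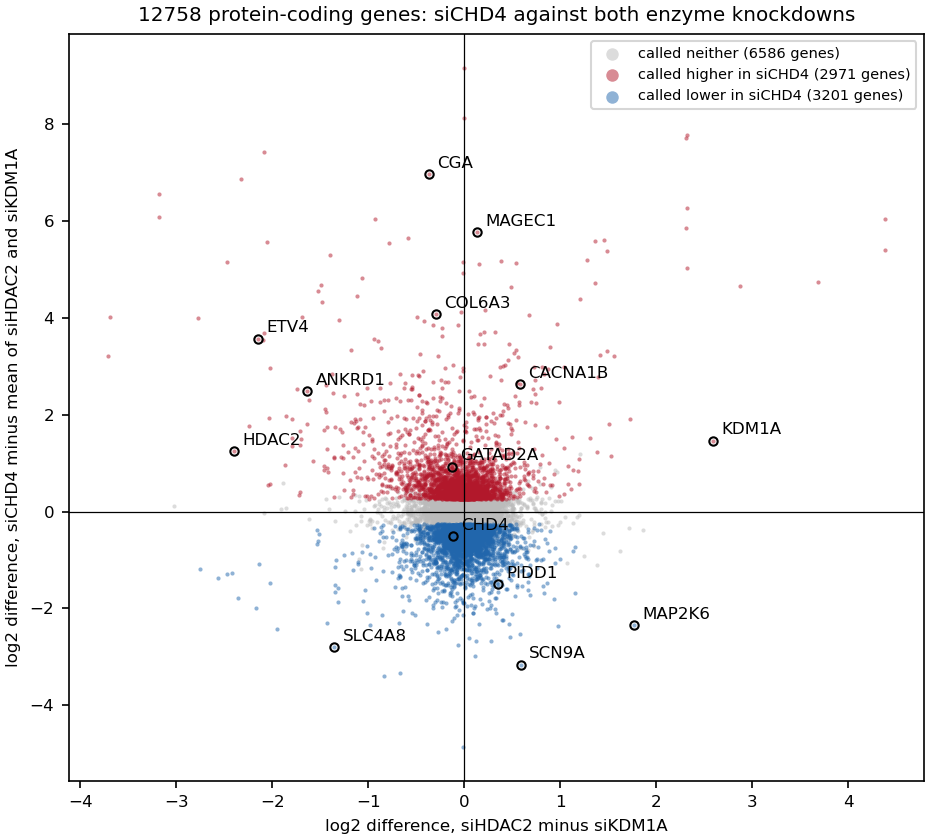
Each point is 1 of 12758 protein-coding genes, plotted as the log2 difference of siHDAC2 minus siKDM1A (x axis) against the log2 difference of siCHD4 minus the enzyme mean (y axis), with called genes in red (higher) and blue (lower). The spread is wider along the y axis (SD 0.68) than along the x axis (SD 0.32), and HDAC2 and KDM1A lie far out on either side of x.

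Of the genes of NuRD itself a smaller share was called (40%) than over all genes (48.4%). All 15 subunit genes were tested, 5 were called higher in siCHD4 and 1, CHD4, lower, and the median log2 difference was 0.11 beside 0.00 over all genes. HDAC2 is the trivial member, since it is the target in 1 of the reference groups. GATAD2A, the zinc finger subunit that ties the remodeller to the deacetylase part, was at 356 and 352 CPM in siCHD4, 174 and 181 in siHDAC2, 200 and 189 in siKDM1A, and 175 and 160 in siCTL. Both siCHD4 libraries were thus about double the enzyme knockdowns and siCTL, with a log2 difference of 0.93 (SE 0.04, adjusted p = 1.78e-28 by edgeR). CDK2AP1, a small subunit and inhibitor of CDK2, was at 95.3 and 92.6 CPM in siCHD4, 62.9 and 62.7 in siHDAC2, 51.9 and 52.5 in siKDM1A and 71.1 and 70.9 in siCTL, a log2 difference of 0.71 (SE 0.05).

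The other remodeller genes of the CHD4 family also stood higher. CHD5, the paralogue known mainly from brain and testis, was at 6.43 and 5.92 CPM in siCHD4 and between 1.05 and 1.85 CPM in the 4 enzyme libraries, with 1.27 and 1.69 in siCTL. CHD3 was at 220 CPM in both siCHD4 libraries, 193 and 198 in siHDAC2, and 168 and 164 in siKDM1A. CHD5 passed the filter only through siCHD4, and its log2 difference was 2.10 (SE 0.19), while for CHD3 it was 0.29 (SE 0.04) and fell under the fold minimum against siHDAC2 alone (0.17) and with a correction for GC content (0.20). The remaining 9 subunit genes were not called, and their log2 differences ran from −0.26 for MTA1 to 0.24 for MBD2.

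Genes of other corepressor and chromatin complexes were called in both directions, and for most of these lists less often than the 48.4% of all genes. Among 20 tested genes of the CoREST complex and KDM1A partners, 4 were called higher and 3 lower (35% called), with a median log2 difference of 0.01. One of the higher ones was the KDM1A target itself, and another was RCOR2, a CoREST scaffold, at 26.7 and 28.2 CPM in siCHD4 and 10.9 to 13.8 CPM in the 4 enzyme libraries (log2 difference 1.16, SE 0.08). Of 20 SIN3 and NCOR corepressor genes 3 were higher and 2 lower (25% called), of 17 other remodeller ATPases 3 and 3 (35.3%), and of 28 Polycomb subunits 6 and 6 (42.9%). The even split of the remodeller ATPases depended on the setting. They were 5 higher and 0 lower with the GC correction, 5 and 1 with the length correction, and 6 and 2 against siKDM1A alone. CBX7, a chromodomain subunit of Polycomb repressive complex, was at 7.87 and 8.41 CPM in siCHD4 and 16.7 to 17.8 in the enzyme libraries. Of 14 tested other deacetylases 2 were higher and 5 lower (50%), with HDAC8 (−0.64), SIRT2 (−0.58) and the tubulin deacetylase HDAC6 (−0.50) all called lower, of which HDAC8 passed the filter only through the enzyme knockdowns.

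The genes with the largest positive differences were almost silent in the enzyme knockdowns. All 10 of those named by size passed the filter only through siCHD4. CGA, which encodes the alpha subunit shared by the glycoprotein hormones and is normally expressed in pituitary and placenta, had 1732 and 1879 counts in siCHD4, 11 and 14 in siHDAC2, and 22 and 10 in siKDM1A. In CPM these were 73.3 and 76.7 against 0.402 to 0.963, with 0.633 and 0.577 in siCTL and 3.16 and 2.80 in siGATAD2A. The siCHD4 libraries stood more than an order of magnitude above every other library, and the log2 difference was 6.98 (SE 0.21). LYG2, a goose-type lysozyme gene, had 221 and 219 counts in siCHD4 and 0 to 3 counts in each of the other 4 libraries. For TMEM151A, H2BC1 (a testis histone H2B gene), SPANXN3 and DCT (dopachrome tautomerase of pigment cells), siCHD4 had 86 to 135 counts in each library and the enzyme libraries 0 to 8, so that their fold changes carry large errors and are not given.

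CGA is a classic target of cyclic AMP signalling, whose response element (CRE) reads TGACGTCA on both strands. The CGA promoter in RefSeq (GRCh38.p14, minus strand) holds that motif in tandem copies, shown here in windows of 30 bases with the motif in capitals:
CGA chr6:87095230-87095259: taagatcaaatTGACGTCAtggtaaaaatt
CGA chr6:87095212-87095241: atggtaaaaatTGACGTCAtggtaattaca
The copies begin 142 and 124 bases before the transcription start. The same 8 letters were found in 1.98% of 27305 RefSeq promoters that span 250 bases before to 50 bases after the start, 1 promoter per symbol. Promoters listed for ETV4, ETV5, SPRY4, BMP2, ANKRD1, MAGEC1, MAGEC2 and LYG2 were searched as well. The search also covered the AP-1 site TGACTCA (4.92% of all promoters) and the E-box CACGTG (7.43%). Only the CRE copies of CGA were found. The match describes the sequence only, and no factor binding was measured here.

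Cancer-testis genes are expressed in germ cells and held silent in somatic tissue, in part by DNA methylation and repressor complexes. Of these genes, MAGEC1, an X-linked member of the melanoma antigen family, was at 22.9 and 20.8 CPM in siCHD4, 0.296 and 0.501 in siHDAC2, 0.438 and 0.322 in siKDM1A, and 0.264 and 0.266 in siCTL (log2 difference 5.77, SE 0.26). MAGEC2 was at 20.9 and 20.4 CPM in siCHD4, 0.890 and 0.859 in siHDAC2 and 0.350 and 0.362 in siKDM1A (log2 difference 5.20, SE 0.23), and MAGEB6, outside the germline list used below, at 13.8 and 13.2 CPM against at most 0.593, and MAGEB2, at 9.65 and 8.41 CPM against at most 0.656, were likewise without overlap. All 4 passed the filter only through siCHD4. These families have close paralogues, and reads that map to several copies are absent from the counts, so the level of a single member is less certain than that of the family.

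Across the 56 germline genes, 18 passed the filter, 9 of them only through siCHD4 and 3 only through the enzyme knockdowns. Of the 18, 11 were called higher and 4 lower. Without the filter, both siCHD4 libraries lay above all 4 others for 25 of the 56 and below for 7, and 7 had 0 counts throughout, while over all 19863 protein-coding genes without the filter such non-overlap was seen above for 24.1% and below for 27%. On CPM scaled by library totals, the summed level of the 56 genes was 229 to 235 in siCHD4, 119 to 121 in siHDAC2, 127 to 129 in siKDM1A and 91.1 to 91.3 in siCTL. The lower ones, chosen for mention after their values were seen, were SYCE2 (−1.57), SYCP2 (−0.97), DPPA2 (−0.81) and TKTL1 (−0.81). In siCHD4 they had 6 and 12, 129 and 99, 38 and 22, and 25 and 45 counts, so most rest on few reads. On CPM scaled by library totals, TKTL1 overlapped between siCHD4 (1.03 and 1.8) and siHDAC2 (1.73 and 2.21), with 3.13 and 3.4 in siKDM1A. With DESeq2, 3 members of the list were called lower. SYCE2 and SYCP2 encode parts of the synaptonemal complex of meiosis.

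Neuronal genes under the repressor REST, which recruits CoREST and KDM1A, were called in both directions, with more members higher. Of the 48, 15 passed the filter, 3 only through siCHD4. Of these 15, 9 (60%) were called higher and 5 (33.3%) lower, with a median log2 difference of 0.745. Without the filter, both siCHD4 libraries lay above all others for 20 of the 48 and below for 8, beside the same 24.1% and 27% over all protein-coding genes. CACNA1B, the pore subunit of the N-type calcium channel, was at 86.3 and 89.6 CPM in siCHD4, 17.8 and 17.0 in siHDAC2, 12.03 and 11.2 in siKDM1A and 12.7 and 12.1 in siCTL, a log2 difference of 2.63 (SE 0.06, adjusted p = 3.21e-38). BEX1, an X-linked brain-expressed gene, had 198 and 185 counts in siCHD4 and 1 to 6 in the other libraries. The cell adhesion gene L1CAM was graded, at 49.0 and 50.1 CPM in siCHD4, 33.0 and 33.9 in siKDM1A and 17.7 and 18.5 in siHDAC2.

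**Figure D3:**
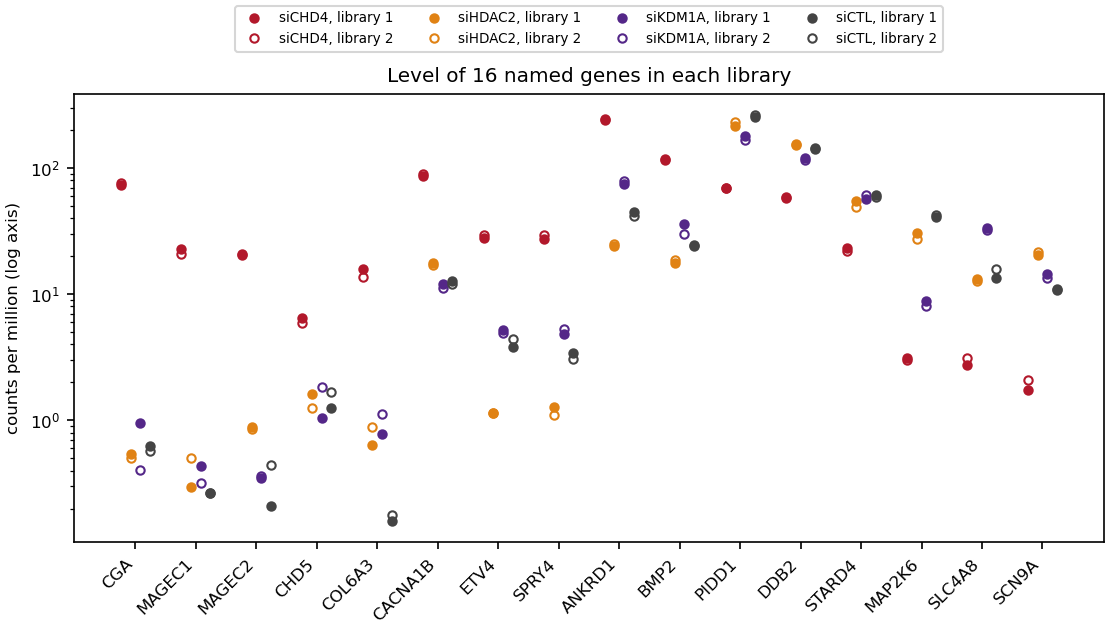
Level of 16 named genes in each library, in CPM on a log axis, for siCHD4, siHDAC2, siKDM1A and siCTL (filled and open circles are the 2 libraries of a group). CGA, MAGEC1, MAGEC2 and COL6A3 stand above the other libraries by an order of magnitude or more in siCHD4, ETV4, SPRY4, ANKRD1 and BMP2 order as siCHD4, siKDM1A, siHDAC2, and the 6 genes from PIDD1 on are lowest in siCHD4.

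The list with the largest share called higher was that of AP-1, immediate early and growth factor feedback genes, many of which respond to signalling through the ERK kinases. Of 32 tested, 25 (78.1%) were called higher and 3 (9.38%) lower, with a median log2 difference of 0.91 beside 0.00 over all genes. ETV4, an ETS factor downstream of ERK, was at 28.0 and 29.4 CPM in siCHD4, 1.14 and 1.15 in siHDAC2, 5.21 and 4.94 in siKDM1A, 3.85 and 4.39 in siCTL, and 18.1 and 18.7 in siGATAD2A. SPRY4, a feedback inhibitor of receptor tyrosine kinase signalling, followed the same order, at 27.5 and 29.6, 1.28 and 1.11, 4.81 and 5.31, 3.43 and 3.06, and 18.96 and 18.95 CPM in siGATAD2A. ETV5 was at 33.5 and 37.1 CPM in siCHD4, 2.47 and 2.08 in siHDAC2 and 4.03 and 4.30 in siKDM1A. Their log2 differences from the enzyme mean were 3.57 (SE 0.13), 3.54 (SE 0.13) and 3.53 (SE 0.11), with adjusted p between 6.20e-34 and 4.09e-32 by edgeR.

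The enzyme knockdowns were not equal for this list, since 17 of the 32 genes were also called between siHDAC2 and siKDM1A. The median was 1.21 against siHDAC2 alone and 0.61 against siKDM1A alone. The 3 lower genes were FOS (−0.96), FOSB (−0.74) and EGR1 (−0.58), while FOSL1 (2.19), DUSP6 (2.65), DUSP5 (2.85) and NR4A1 (2.82) were higher. These 7 were named after their values were seen. Of the 28 called members, siCTL lay nearer to siCHD4 than to the enzyme mean for 2 and siGATAD2A for 15.

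Targets of YAP and TAZ, the coactivators of the Hippo pathway, were higher in 14 of 21 tested (66.7%) and lower in 3 (14.3%), with a median of 0.53. ANKRD1, a nuclear ankyrin repeat protein and a standard YAP readout, was at 240 and 245 CPM in siCHD4, 24.1 and 25.2 in siHDAC2, 74.6 and 78.4 in siKDM1A, and 44.8 and 41.6 in siCTL (log2 difference 2.48, SE 0.04, adjusted p = 1.24e-43). CCN2, a matricellular protein, was at 255 and 257, 68.7 and 67.3, and 140 and 141 CPM in siCHD4, siHDAC2 and siKDM1A, and 126 and 138 in siCTL. The siHDAC2 libraries were thus the lowest for both, siKDM1A was close to siCTL or above it, and 13 of the 21 genes were called between the enzyme knockdowns. Against siKDM1A alone the median of the list was 0.27.

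Secreted signals and their receptors moved in both directions, with more members higher. Of 27 tested genes of the BMP and TGF-beta pathways and ID factors, 13 (48.1%) were higher and 7 (25.9%) lower. BMP2, a ligand, was at 118 and 116 CPM in siCHD4, 17.6 and 18.5 in siHDAC2, 36.1 and 30.3 in siKDM1A and 24.4 and 24 in siCTL (log2 difference 2.26, SE 0.06). TGFB1 was at 165 and 169 CPM in siCHD4, 55.2 and 56.5 in siHDAC2 and 106 and 108 in siKDM1A (1.11, SE 0.04). Of 22 tested Notch pathway genes 9 (40.9%) were higher and 5 (22.7%) lower, and the ligands DLL4 (1.46, SE 0.14), DLL1 (1.3, SE 0.07) and JAG2 (1.13, SE 0.05) had the largest differences among members with at least 100 counts. Of 38 WNT pathway genes 15 (39.5%) were higher and 9 (23.7%) lower, and both the ligand WNT7B (1.92, SE 0.11) and the secreted inhibitor DKK1 (2.23, SE 0.12) were higher.

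Genes of the extracellular matrix and its receptors were split evenly, 16 higher and 14 lower of 43 tested, a called share of 69.8% beside 48.4% over all genes. COL6A3, a chain of collagen VI, was at 16 and 13.8 CPM in siCHD4, 0.642 and 0.895 in siHDAC2, 0.787 and 1.13 in siKDM1A, and 0.158 and 0.177 in siCTL (log2 difference 4.09, SE 0.19), and passed the filter only through siCHD4. COL12A1 was at 131 and 130 CPM in siCHD4 and 32.0 to 58.3 CPM in the enzyme libraries. In bulk RNA, fewer cells expressing such a gene and less RNA per cell cannot be told apart.

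Stress response genes were called higher more often than lower. Of 35 tested genes of the unfolded protein and integrated stress responses, 20 (57.1%) were called higher and 3 (8.57%) lower, with a median of 0.34. ATF3, a stress-induced factor, was at 107 and 111 CPM in siCHD4, 45.5 and 47.2 in siHDAC2, and 59.6 and 58.3 in siKDM1A (1.06, SE 0.05), and CTH, an enzyme of cysteine synthesis under ATF4, gave 1.04 (SE 0.11). DDIT4, an inhibitor of mTOR signalling, went the other way, at 54.0 and 59.5 CPM in siCHD4, 136 and 152 in siHDAC2 and 98.6 and 97.7 in siKDM1A (−1.07, SE 0.05).

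Antigen presentation and interferon-induced genes diverged. Of 16 tested genes of MHC class I presentation, 9 (56.2%) were called higher and none lower, with a median of 0.34. TAP2, a subunit of the peptide transporter, was at 39.1 and 38.5 CPM in siCHD4 and 18.4 to 19.7 in the 4 enzyme libraries (1.03, SE 0.07), and NLRC5, the transactivator of class I genes, was at 49.0 and 49.8 against 23.3 to 28.2 CPM (0.94, SE 0.06). HLA-B, a polymorphic gene with close paralogues, so that its count is uncertain, gave 0.89 (SE 0.04). Of 30 tested interferon-induced genes, by contrast, 15 (50%) were lower and 5 (16.7%) higher, with a median of −0.32. CMPK2, a mitochondrial nucleotide kinase, was at 2.92 and 3.06 CPM in siCHD4 and 7.24 to 8.05 in the enzyme libraries (−1.33, SE 0.15), and the helicase-like DDX60 at 5.46 and 6.28 against 10.8 to 15.5 CPM (−1.16, SE 0.12), DDX60 passing the filter only through the enzyme knockdowns.

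The p53 targets were lower in 23 of 46 tested (50%) and higher in 7 (15.2%), with a median of −0.26. PIDD1, a p53-induced death domain protein, was at 69.8 and 69.2 CPM in siCHD4, 215 and 232 in siHDAC2, 180 and 168 in siKDM1A, and 253 and 266 in siCTL (−1.51, SE 0.04, adjusted p = 8.92e-33). DDB2, a sensor of ultraviolet DNA damage, was at 57.8 and 58.5 CPM in siCHD4, 154 and 155 in siHDAC2 and 120 and 116 in siKDM1A, and 142 and 145 in siCTL (−1.21, SE 0.04). CDKN1A, the p21 inhibitor of cyclin-dependent kinases, was at 141 and 150 CPM in siCHD4, 220 and 229 in siHDAC2, 231 and 226 in siKDM1A, 253 and 269 in siCTL, and 139 and 136 in siGATAD2A. The siCHD4 libraries were below the enzyme knockdowns and siCTL for all 3 genes.

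Of 43 tested S phase genes, 17 (39.5%) were called lower and 1 (2.33%) higher, beside 25.1% and 23.3% over all genes, with a median of −0.21 and 35 of the 43 below 0. The share called in either direction was 41.9%, below the 48.4% of all genes. RRM2, the inducible subunit of ribonucleotide reductase, was at 237 and 243 CPM in siCHD4, 410 and 404 in siHDAC2 and 376 and 379 in siKDM1A (−0.71, SE 0.03), and MCM5, a subunit of the replicative helicase, at 172 and 176, 285 and 299, and 223 and 221 CPM (−0.55, SE 0.04). Of 52 tested genes of G2 and mitosis, 7 were lower and 5 higher, with a median of −0.02, so that 23.1% were called against 48.4% of all genes. Of the 18 cell cycle genes that the study examined by RT-qPCR or chromatin immunoprecipitation, a list chosen by the study itself, 4 (22.2%) were lower and 1 (5.56%) was higher. NEDD1, which anchors the gamma-tubulin ring complex, was lower (−0.67, SE 0.06), as was the phosphatase CDC25B (−0.33, SE 0.03), while CDC25A was higher (0.41, SE 0.04).

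Of 35 tested genes of cholesterol and fatty acid synthesis, 18 (51.4%) were called lower and 3 (8.57%) higher, with a median of −0.31. STARD4, a cholesterol transfer protein, was at 23.4 and 22.1 CPM in siCHD4, 54.6 and 49.4 in siHDAC2, 56.7 and 61.6 in siKDM1A, and 61.5 and 59.1 in siCTL (−1.28, SE 0.06). PMVK, a kinase of the mevalonate pathway, gave −1.20 (SE 0.10) and FDFT1, squalene synthase, −0.88 (SE 0.05). For none of the 21 called members did siGATAD2A lie nearer to siCHD4 than to the enzyme mean.

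Of 61 nuclear genes of the respiratory chain 18 (29.5%) were called lower, near the 25.1% of all genes, and 1 (1.64%) higher, with a median of −0.12. NDUFB10 was at 40.9 and 38.3 CPM in siCHD4 and 72.5 to 78.1 in the enzyme libraries (−0.92, SE 0.05). Of 13 mitochondrially encoded members 2 (15.4%) were higher and 3 (23.1%) lower. Cytosolic ribosomal protein genes had the smallest called share of the lists, with 3 higher and 1 lower of 77, or 5.19% called. HOX genes were lower in 10 of 31 tested (32.3%) and higher in 4 (12.9%), with HOXA13 at 6.43 and 6.81 CPM in siCHD4 and 13.2 to 15.3 in the enzyme libraries (−1.10, SE 0.11). Glycolysis and hypoxia genes were mixed, 10 (27.8%) higher and 7 (19.4%) lower of 36, and of 31 histone genes 2 (6.45%) were higher and 4 (12.9%) lower. Several of these counts moved when the log2 differences were corrected for exonic length. Histone genes were then 0 higher and 14 lower, and mitochondrially encoded members 0 and 9. Nuclear respiratory genes were 2 and 26, HOX genes 3 and 15, ribosomal protein genes 1 and 3, and glycolysis and hypoxia genes 11 and 7.

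**Figure D4:**
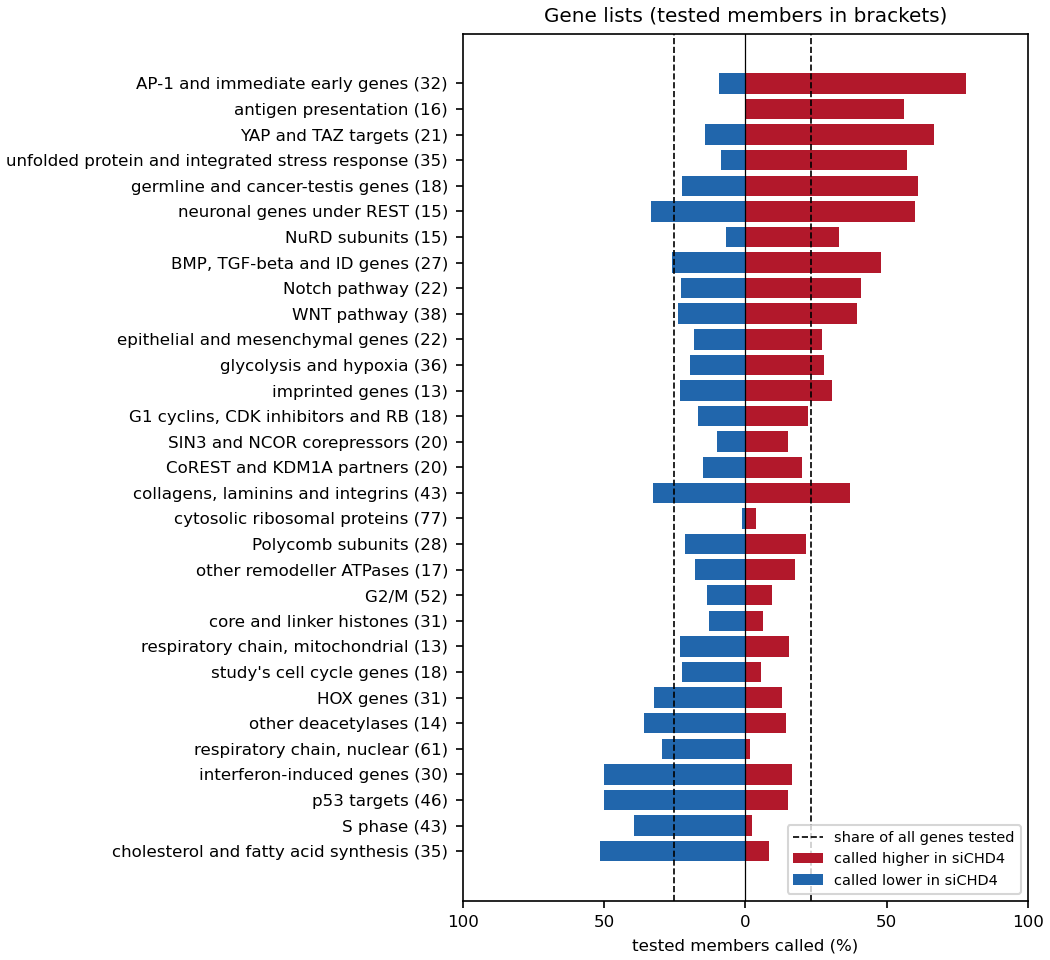
Share of the tested members of each gene list that was called higher (red, to the right) or lower (blue, to the left) in siCHD4 than in the mean of siHDAC2 and siKDM1A, with the number tested in brackets. Dashed lines mark the shares over all genes tested, 23.3% and 25.1%, and lists run from AP-1 and immediate early genes at the top to cholesterol and fatty acid synthesis at the bottom.

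The genes with the largest negative differences kept a measurable level in siCHD4. Of the 10 named by size, all but PIR passed the filter only through the enzyme knockdowns. SCN9A, a voltage-gated sodium channel gene of sensory neurons, was at 1.74 and 2.08 CPM in siCHD4, 20.3 and 21.7 in siHDAC2, 14.5 and 13.4 in siKDM1A, and 11.1 and 10.9 in siCTL (−3.16, SE 0.17). PIR, an iron-binding nuclear protein, was at 1.44 and 1.22 CPM in siCHD4 and 9.95 to 12.2 in the enzyme libraries, with 5.7 and 5.99 in siCTL (−2.98, SE 0.21). For both genes the siCHD4 libraries also lay below the siCTL libraries. The deubiquitinase OTUB2 (−2.75), WDR17 (−2.68), the tubulin glutamylase subunit TTLL1 (−2.68), the uroplakin UPK1B (−2.61), MYO15B (−2.58) and the zinc finger gene ZNF624 (−2.42) followed, all with both siCHD4 libraries below the other 4.

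A pair of genes in that group split the enzyme knockdowns. MAP2K6, a kinase that activates p38, was at 3.13 and 3.02 CPM in siCHD4, 30.5 and 27.5 in siHDAC2, 8.84 and 8.12 in siKDM1A, 41.2 and 42.2 in siCTL, and 6.16 and 6.80 in siGATAD2A (−2.35, SE 0.14). SLC4A8, a sodium-dependent bicarbonate transporter, was split the other way, at 2.75 and 3.14 CPM in siCHD4, 13.1 and 12.7 in siHDAC2, 33.6 and 32.3 in siKDM1A, and 13.3 and 15.9 in siCTL (−2.80, SE 0.14).

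The control libraries, which had no part in the contrast, were then set beside these differences. On a scale where 0 is the enzyme mean and 1 is siCHD4, the median position of siCTL was 0.08 for both the higher and the lower genes. Thus siCTL lay nearer to the enzyme mean for 2442 of the 2971 higher genes (82.2%) and 2603 of the 3201 lower genes (81.3%). Among genes more than 2-fold apart this share was 94.2% and 89.2%. The siGATAD2A libraries, in which the partner subunit was reduced from 167.8 to 49.8 CPM on average, had median positions of 0.23 and 0.28, and were nearer to siCHD4 for 29.2% of the higher and 32.7% of the lower genes. Both positions divide by the same siCHD4 difference, and no test was made of them. Genes were also called by that difference, and a larger divisor draws any position towards 0. The shares over all genes were not computed, so these positions cannot decide which side moved. Multimapping reads made up 10.6% and 7.54% in siCTL and 5.44% to 6.53% in the 6 libraries of the contrast.

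Properties of the genes differed with direction. The median GC content of exonic bases was 52.3% for genes called higher, 46.4% for those called lower and 47.2% for the rest. The genomic span had a median of 26707 bases for higher and 37322 bases for lower genes, and the exonic length 4938 and 5487 bases. With the log2 differences corrected for GC content, 2926 genes were higher and 3239 lower, and 5321 of the 6172 calls were kept with their direction.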

How the data were processed

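The deposited files hold 1 table per library with raw read counts per gene, which the authors made with STAR (the submitters' processing notes name STAR 2.7.10, CASAVA 1.4 and hg19); the annotation version is not given in the sources used here. Column 4, the strand of the directional kit, was used. Ambiguous and multimapping reads are not in these counts, and rows that name no gene (unmapped, multimapping, no feature, ambiguous) were left out of library sizes. Of 60660 identifiers, 58662 (96.7%) matched GENCODE 44 lifted to GRCh37, which gave symbols, biotypes, lengths and coordinates. The members and gene lists were chosen with earlier results of these data known.

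Protein-coding genes with a mean FPKM, computed here, above 0.5 in siCHD4, siHDAC2 or siKDM1A were fitted with edgeR 4.0.16 (TMM, quasi-likelihood F test, 3 residual degrees of freedom, R 4.3.3), with Benjamini-Hochberg adjustment over the 12758 genes. For single values, an exact permutation of 2 against 4 libraries cannot go below p = 0.0667, so none was used. On simulated counts for the same 12758 genes, 87 of 100 changes of 0.5 and 96 of 100 changes of 1 (log2) were recovered, with 2 false calls. Only those genes were changed there, as many up as down. The noise came from the dispersions of the fit, and the enzyme groups did not differ. In the data 48.4% of genes were called, so the simulation does not measure the error of those calls or of the scaling. Named genes were the targets and NuRD subunits, the 10 largest differences each way without overlap, and up to 3 called members per list, each with a mean count of at least 100 in the higher group or groups. Levels of genes near 0 rest on few reads, and counting error there is large.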

Additional observations from a re-analysis of the deposited data

Results flagged for a closer look

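For 31 genes siCHD4 was called higher than 1 enzyme knockdown and lower than the other, and each of the 31 was also called between siHDAC2 and siKDM1A. These were picked out because the 2 knockdowns in the reference had opposite differences from siCHD4, so that the mean of the enzyme groups hides them. In 27 the order was siHDAC2 lowest, siCHD4 between and siKDM1A highest, and in 4 it was the reverse. WNT6 (a WNT ligand) was 1.01 above siHDAC2 and −1.07 from siKDM1A on the log2 scale, TNC (the matrix protein tenascin C) 1.01 and −0.90, and IL32 (a cytokine) 0.99 and −0.86. NOTUM, a secreted WNT inhibitor, was 1.27 above siHDAC2 and −0.45 from siKDM1A. ENPP2 (autotaxin) was among the 4 in the reverse order, at −1.20 from siHDAC2 and 0.52 above siKDM1A. These 5 were named after their values were seen.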

How the results depend on the processing

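The counts of genes called higher (2971) and lower (3201) stayed within 1.5 times under other scalings, filters, strand settings, corrections and tools, except where the fold minimum changed. With no fold minimum 4531 genes were higher and 3742 differed between siHDAC2 and siKDM1A. With a fold minimum of 2 there were 501 higher, 491 lower, 982 called without overlap and 158 between the enzyme knockdowns. DESeq2 1.42.0 gave 2882 higher and 3010 lower. Leaving out 1 library gave 2845 to 2976 higher and 3065 to 3209 lower. HDAC2 was 0.046 against siKDM1A alone and KDM1A 0.17 against siHDAC2 alone, no longer called, since neither group then carries that knockdown. MTA3, not called, turned to −0.0051 without a filter, −0.070 against siKDM1A alone and −0.052 with the GC correction, and ran from −0.030 (without siKDM1A replicate 1) to 0.040 (without siKDM1A replicate 2) with 1 library left out. A fit with the replicate number as a block gave 2961 higher and 3177 lower. Deviations of same-numbered libraries correlated at −0.12 (siCHD4 and siHDAC2), 0.15 (siCHD4 and siKDM1A) and −0.28 (siHDAC2 and siKDM1A). The labels do not say whether same-numbered libraries were prepared together, and these correlations cannot settle it. The count of calls without overlap was not recomputed with DESeq2, the GC or length corrections or a single enzyme group, and the count between the enzyme knockdowns was not recomputed with these corrections. With 2 libraries per group and small counts in the genes near 0, depth limits the size of their differences.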

Other observations

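Long non-coding RNAs, tested with a filter over every biotype, were called less often than all genes under that filter, with 486 higher and 696 lower in siCHD4 of 3448 tested, or 34.3% called beside 43.1% of all 19498 genes. Calls depend on depth, and no share matched for expression level was computed, so these shares do not compare the sizes of the differences. The RNAs below were named after their values were seen. TSPEAR-AS2 was at 12.3 and 12.9 CPM in siCHD4, scaled by library totals, and 0.321 to 0.704 in the 4 enzyme libraries. LINC00963 was at 6.57 and 8.42 CPM in siCHD4, 22.0 to 27.0 in the enzyme libraries, and 33.5 and 34.8 in siCTL. PURPL, a p53-regulated transcript, was at 3.39 and 3.91 CPM in siCHD4, 11.7 to 13.3 in the enzyme libraries, and 5.37 and 6.14 in siCTL, so that there the enzyme knockdowns stood above both other groups.

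Genes with a ZNF symbol, most of which encode Krüppel-type zinc finger proteins, were grouped after the values were seen. Of 449 tested, 195 (43.4%) were called lower in siCHD4 and 45 (10%) higher, beside 25.1% and 23.3% over all genes. On chromosome 19, where many of them lie in clusters, 108 of 217 (49.8%) were lower, and elsewhere 87 of 232 (37.5%). Of 760 other genes tested on chromosome 19, 166 (21.8%) were lower. The median exonic GC content was 44.1% for all genes with a ZNF symbol and 43.3% for those on chromosome 19. For the other genes on chromosome 19 it was 59.9%, and the part of GC content in these shares was not tested.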
